A study of Mus musculus with 12 samples.

Results

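In mouse microglial cells of the immortalised BV-2 line, 227 transcripts that gave no detectable signal in untreated cells were detected on every curcumin array at a far higher signal. A transcript was taken where at least 1 of its probes met 3 conditions. The probe was not well above background (the scanner software's own detection call) on any of the 3 untreated arrays, it was well above background on all 3 curcumin arrays, and its mean log2 signal was at least 5 higher with curcumin. In all, 237 probes of the 41174 on the array met these conditions (0.576%), and they carry 227 accessions, of the 33074 on the array. Of the 227 accessions, 176 have a gene symbol, all of protein-coding genes, and 51 are unnamed. Cd247 stands under 2 accessions, so there are 175 distinct symbols. The transcripts were chosen by their values on the untreated and curcumin arrays, which are given as a description, with no test. The LPS and LPS+curcumin arrays were not used in the choice.

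Microglia are the resident macrophages of the brain. The study had 12 arrays in 4 groups of 3, namely untreated BV-2 cells, cells given 20 µM curcumin, cells given 100 ng/ml lipopolysaccharide (LPS) and cells given both. Per the labels, each treatment ran for 6 h. No vehicle is named for the untreated cells, and the labels do not say whether the 3 samples of a group were separate cultures, so p-values measure only the spread between these samples. All groups are the same immortalised line, and no primary microglia were measured. Each replicate number is 1 slide with 1 array of each group, always at the same position, so group and position on the slide cannot be told apart.

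As background, a differentiated cell keeps most genes of other tissues untranscribed, because the factors that read them are missing and because their chromatin is closed, often with methylated CpG sites around the start of transcription. Curcumin is a turmeric polyphenol whose enone groups react with thiols, and it is known as an inducer of antioxidant and heat shock genes. LPS, a glycolipid of the outer membrane of Gram-negative bacteria, acts on microglia through Toll-like receptor 4 and switches on cytokine genes. Every microglia and macrophage marker measured, 11 of 12 listed, was detected on all 3 untreated arrays.

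The promoters of 5 of the genes are shown because they stand for the range seen among them, from a hexokinase gene and genes of fat, liver and germ cells to a heat shock gene. Each run is the 250 bases before the start of transcription on the gene's own strand, from RefSeq's promoter table for mouse build GRCm38.p6. Capitals mark the letters that matched a motif searched on both strands. Those motifs were TGACNNNGC (the core of the antioxidant response element), GAANNTTC (heat shock element) and TGACGTCA (cyclic AMP response element). The AP-1 site was searched as TGANTCA. The E-box was searched as CACGTG. The TATA box was searched as TATAAA.
Hkdc1: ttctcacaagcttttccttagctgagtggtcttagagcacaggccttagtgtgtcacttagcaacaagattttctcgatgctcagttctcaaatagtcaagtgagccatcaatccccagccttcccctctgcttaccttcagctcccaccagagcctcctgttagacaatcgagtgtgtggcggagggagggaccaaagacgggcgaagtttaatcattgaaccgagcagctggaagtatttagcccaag
Adipoq: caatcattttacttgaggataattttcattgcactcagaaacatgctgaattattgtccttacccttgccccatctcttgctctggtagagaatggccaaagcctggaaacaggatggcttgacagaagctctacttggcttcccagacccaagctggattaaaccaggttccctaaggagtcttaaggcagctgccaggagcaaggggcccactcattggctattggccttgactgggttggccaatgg
Ahsg: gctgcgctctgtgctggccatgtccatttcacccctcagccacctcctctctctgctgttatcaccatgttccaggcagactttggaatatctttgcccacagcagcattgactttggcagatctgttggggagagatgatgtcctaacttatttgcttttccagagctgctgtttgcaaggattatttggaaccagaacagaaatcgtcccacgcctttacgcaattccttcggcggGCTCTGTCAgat
Taf7l: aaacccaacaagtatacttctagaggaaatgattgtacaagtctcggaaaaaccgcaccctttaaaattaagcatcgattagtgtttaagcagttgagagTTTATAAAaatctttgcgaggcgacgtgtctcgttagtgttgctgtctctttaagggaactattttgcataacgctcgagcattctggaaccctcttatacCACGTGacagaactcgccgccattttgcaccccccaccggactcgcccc
Hspa1a: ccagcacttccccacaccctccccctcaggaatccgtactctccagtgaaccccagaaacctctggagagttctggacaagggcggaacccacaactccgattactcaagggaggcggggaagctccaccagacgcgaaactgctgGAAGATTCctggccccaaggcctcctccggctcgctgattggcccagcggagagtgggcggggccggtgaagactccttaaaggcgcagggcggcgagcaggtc
The Hkdc1 run lies at chr10:62422458-62422707 (minus strand), Adipoq at chr16:23146286-23146535 (plus strand), Ahsg at chr16:22891765-22892014 (plus strand), Taf7l at chrX:134476491-134476740 (minus strand) and Hspa1a at chr17:34972157-34972406 (minus strand). None of the motifs stands in the Hkdc1 or Adipoq run, and the Adipoq run has 0 CpG dinucleotides. The Ahsg run has 1 antioxidant response core, the Hspa1a run 1 heat shock element, and the Taf7l run an E-box beside 2 overlapping TATA boxes on opposite strands. A match is a match of letters only.

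Signal is given as log2 of the processed signal minus the 75th percentile of the same array, so 0 is a bright spot and values fall below 0 for dimmer spots. The dimmest detected probe of an array stood between -7.47 and -5.74 on this scale, and values under it have no firm order. The median over the 227 transcripts was -9.31, -9.51 and -9.68 on the untreated arrays and -3.58, -3.43 and -3.05 on the curcumin arrays. In the scanner's own units, the median transcript stood at 1.15 to 1.44 on untreated arrays and 48.5 to 57.2 on curcumin arrays, where the dimmest detected probes stood at 5.33 to 6.28. That gap follows from the rule. In such bulk RNA, more cells with a transcript and more of it per cell cannot be told apart. Because the untreated signal is not detected, folds are given as bounds against a floor, the dimmest detected signal of each untreated array. The floor is the lowest of all detected probes, so some undetected values, such as Gramd1c on untreated replicate 1, lay above it. There the probe's own signal was used. A bound is thus not a detection limit of the single probe, and it carries no spread between arrays. On the scaled signal the bound ran from at least 6.97-fold to at least 249.5-fold higher with curcumin, with a median of 16.5-fold. Relative to the spike-in control spots, this scale lifts the curcumin arrays. Their 75th percentile lay 0.47 to 0.83 above those spots on the log2 scale, against 1.49 to 1.76 on the untreated arrays. The bounds thus hold for this scaling, and would be smaller against the spike-ins. No probe did the reverse on this scale: 171 probes went from detected on all untreated arrays to undetected on all curcumin arrays, and 0 of them fell by 5 or more. The lift of the curcumin arrays also lessens every fall, so a threshold of 5 is stricter for falls than for rises.

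**Figure D1:**
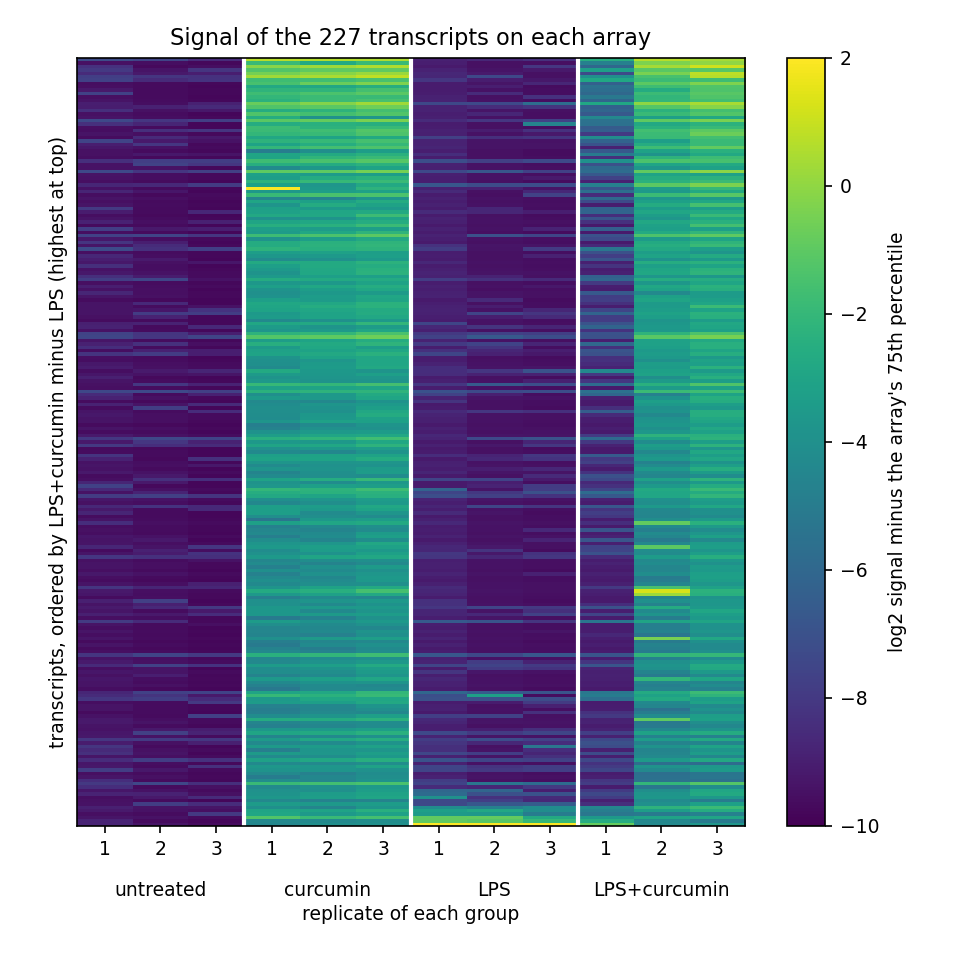
Signal of the 227 transcripts (rows) on the 12 arrays (columns, by group and replicate), as log2 signal minus the array's 75th percentile, with rows ordered by the difference of LPS+curcumin from LPS. The untreated and LPS arrays are dark for nearly all rows, the curcumin arrays and LPS+curcumin replicates 2 and 3 are light, and LPS+curcumin replicate 1 lies close to the LPS arrays. Isolated bright cells in curcumin replicate 1 and LPS+curcumin replicate 2 are spots that the scanner software marked as outliers.

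One array of the doubly treated cells stood apart. The median over the transcripts was -8.00 on LPS+curcumin replicate 1, against -3.55 and -2.96 on replicates 2 and 3. On LPS alone it was -8.89, -9.38 and -9.43. Replicate 1 was thus nearer to the LPS arrays. There 25 of the 227 transcripts were closer to their curcumin mean than to their LPS mean. The share of all probes closer to curcumin there was not counted. The 75th percentile of that array lay 1.45 above its spike-in controls on the log2 scale, as on the LPS arrays (1.30 to 1.57), whereas it lay 0.49 and 0.16 above them on the other arrays of its group and 0.47 to 0.83 on the curcumin arrays. Whether that array was treated as labelled was not tested, and results that rest on it are given with and without it. On LPS+curcumin replicate 2 the scanner software marked 1594 spots as outliers, 11 of them spots of these transcripts, and 10 transcripts have no value from that array in the fits.

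With LPS alone nearly all of the transcripts stayed silent. Of the 227, 200 were well above background on none of the 3 LPS arrays, 13 on 1, 6 on 2 and 8 on all 3. The 3 arrays detected 12, 17 and 20 of them, against 2.73%, 3.52% and 3.46% of all probes silent in untreated cells. Of those probes, 1.14% were detected on all 3 LPS arrays. The exceptions on all 3 arrays were both Cd247 accessions, Batf, Dll1, BC019122, Zfp811, Csf3 and Dusp8.

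With curcumin added to LPS the transcripts came on in 2 of the 3 samples. Replicate 2 detected 227 of the 227, replicate 3 detected 226, and replicate 1 detected 61. The transcript missed by replicate 3 was Ldlrad1, a low-density lipoprotein receptor class A domain gene, named here after its values were seen. Of all 15248 probes silent in untreated cells, 16.1% were detected on replicate 2, 6.53% on replicate 3 and 3.06% on replicate 1. All 3 arrays together detected 61 of the transcripts and 1.1% of the silent probes, and replicates 2 and 3 together 226 of the transcripts and 5.66% of the silent probes. The signal on replicate 3 was within 1 log2 unit of the curcumin mean for 204 of 227 transcripts, and on replicate 2 for 193 of the 217 with an unmarked spot. Levels above every curcumin array by more than 1 on both replicates were found for 3 transcripts (Hspa1a, Dusp8 and 1 unnamed). Levels below every curcumin array by more than 1 on both were found for 3 (both Cd247 accessions and Ldlrad1). The shares of all probes so near to, above or below the curcumin arrays were not counted.

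**Figure D2:**
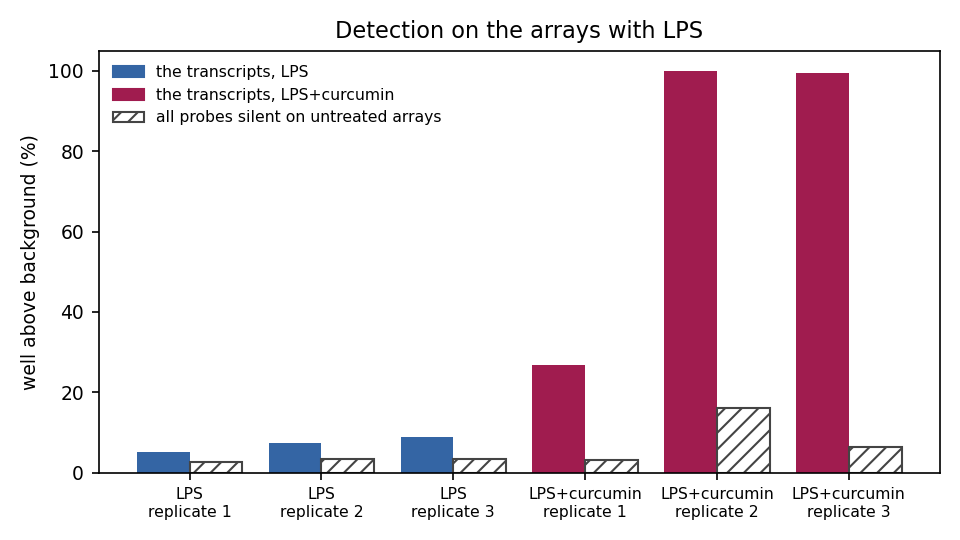
Percent of the 227 transcripts (filled bars) and of all 15248 probes silent on the untreated arrays (hatched bars) that were well above background on each LPS and LPS+curcumin array. The filled bars are near 100 on LPS+curcumin replicates 2 and 3, where the hatched bars stand at 16.1 and 6.53, and are low on the 3 LPS arrays.

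The difference of LPS+curcumin from LPS was tested, since neither group entered the choice. In limma's fit of 4 group means over all 12 arrays, 193 of the 227 transcripts rose and 3 fell at a Benjamini-Hochberg adjusted p below 0.05, over the 25530 probes tested. Among all probes tested, 13.3% rose and 5.92% fell. A probe was tested if some group detected it on all 3 arrays, and 165 of the transcripts entered only through the curcumin arrays that chose them. Where entry rested on the LPS or LPS+curcumin arrays, 62 transcripts were left to test, of which 54 rose and 3 fell, against 11.8% and 6.37% of all probes so tested. Of the 62, 61 were detected on all 3 LPS+curcumin arrays, where the rise is read, so this filter also favours a rise. With no such filter 127 rose and 3 fell, against 6.58% and 2.55%. The median difference was 3.94 over the transcripts and 0.31 over all probes tested. That fit pools the spread of all 4 groups, and the rule chose transcripts on the values of 2 of them. A fit on the 6 LPS and LPS+curcumin arrays alone, the 2-group fit, called 34 higher and 1 lower, against 0.924% and 1.01% of all probes. Without LPS+curcumin replicate 1, 222 rose and 3 fell in the fit of all groups (39.1% and 14.5% of all probes), and likewise 222 and 3 in the 2-group fit (28% and 11.1%). The total called, 196 with all arrays, was 127 without untreated replicate 2 and 130 without untreated replicate 3 or without curcumin replicate 2. It was 97, 84 and 92 without LPS replicates 1, 2 and 3, and 72 and 88 without LPS+curcumin replicates 2 and 3. In those 8 fits, 3.74% to 9.73% of all probes were called higher. Of the 193 that rose, 69 kept the call in every fit with 1 array removed. Among all probes at most 3.74% can have been so called, the lowest share of those fits. With another background correction (normexp with an offset of 50), 4 rose and 1 fell, against 0.0823% and 0.329% of all probes. The median transcript stood at 48.3 and 39.2 scanner units on LPS+curcumin replicates 2 and 3. No other offset was run, and whether the offset accounts for the lower counts was not tested. With quantile scaling 119 rose and 3 fell, against 6.51% and 7.23%.

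The slide can be examined as a batch, because each slide holds all 4 groups. Within slide 1 the median difference of LPS+curcumin from LPS was 0.54, within slide 2 it was 5.27 and within slide 3 it was 6.07, against 5.42, 5.80 and 6.30 for curcumin from untreated on the same slides. With the replicate block (the slide as a term), limma called 204 higher and 3 lower, against 20.7% and 8.67% of all probes. Of the 61 transcripts detected on all 3 LPS+curcumin arrays, 54 had all 3 above the 3 LPS arrays, as had 20.7% of all tested probes so detected. Of the 8 detected on all 3 LPS arrays, 3 had all LPS+curcumin arrays below them, as had 9.75% of all tested probes so detected. Picking transcripts by detection in a group favours that group being the higher, so neither count is a test.

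**Figure D3:**
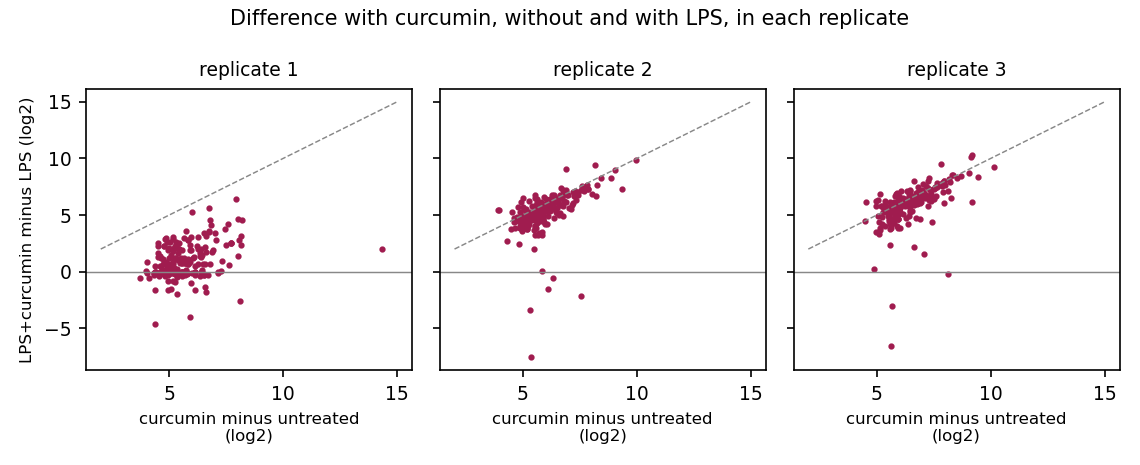
Difference with curcumin in cells given LPS (LPS+curcumin minus LPS, vertical axis, log2) against the difference without LPS (curcumin minus untreated, horizontal axis, log2) for each transcript, 1 panel per replicate, with the line of equal differences dashed. Points lie along the dashed line in replicates 2 and 3 (medians 5.27 and 6.07) and near 0 in replicate 1 (median 0.54). The point far to the right in replicate 1 is Degs2, whose spot on that curcumin array was marked as an outlier.

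The transcripts are described by where their genes are known to act, a grouping made from general knowledge after the members were known and used for order only. The counts called higher in each group stand against 193 of all 227 transcripts in limma's fit of all arrays. They stand against 34 in the 2-group fit and 222 without LPS+curcumin replicate 1. Over all probes tested, the shares called higher were 13.3%, 0.924% and 39.1% in these fits. No group was tested against the other transcripts, so the counts are not read as results for a tissue. Each difference of LPS+curcumin from LPS is given from limma's fit of all arrays. For those past the threshold the adjusted p of the 2-group fit follows. Where no LPS array detected the transcript, the log2 difference leans on undetected signals, and a fold bound against the floor stands beside it. Where replicate 1 of LPS+curcumin did not detect it either, the bound is given without that array and speaks for the other replicates only. Leaving it out raises the bounds. Over the 200 transcripts silent with LPS alone, the median bound was 4.41-fold with all arrays and 13.97-fold without replicate 1. Hkdc1, a member of the hexokinase family, stood at -8.28, -9.68 and -9.58 on the untreated arrays, -0.11, 0.27 and 0.59 with curcumin, -9.14, -9.45 and -8.11 with LPS and -6.01, 0.39 and 1.12 with both. The curcumin arrays and replicates 2 and 3 of LPS+curcumin are all high and do not overlap the others, and replicate 1 of LPS+curcumin lies between them. Its signal was at least 199.9-fold higher with curcumin than untreated. The difference of LPS+curcumin from LPS was 7.40 ± 1.42 (SE, adjusted p = 0.0071, and 0.071 in the 2-group fit, at least 47.9-fold) in limma's fit, and at least 228-fold without replicate 1.

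Gramd1c, which encodes a sterol-transfer protein of membrane contact sites, stood at -7.20, -7.56 and -8.52 untreated, 0.73, 0.60 and 0.52 with curcumin, -8.91, -8.69 and -8.35 with LPS and -2.51, 0.69 and 0.40 with both. Here all 3 LPS+curcumin arrays were above all LPS arrays, replicate 1 included. The bound with curcumin alone was 249.5-fold, the highest of all 227. LPS+curcumin exceeded LPS by 8.18 ± 0.68 (SE, adjusted p = 1.5e-04, and 0.012 in the 2-group fit, at least 97.6-fold) in limma. Scin, which encodes the actin-severing protein scinderin, stood at -5.51, -1.73 and -1.32 with both agents and -2.76, -2.92 and -2.50 with curcumin, and not above -8.98 on any other array. Its rise over LPS was 6.35 ± 0.83 (SE, adjusted p = 0.0013, and 0.036 in the 2-group fit, at least 18.7-fold) in limma. Degs2, a sphingolipid desaturase and hydroxylase, stood at 4.95, -3.49 and -2.23 with curcumin, and the first of these spots was marked as an outlier. It rose over LPS by 4.97 ± 0.97 (SE, adjusted p = 0.0089, and 0.065 in the 2-group fit, at least 21.3-fold without replicate 1) in limma, which left that spot out. With the marked spots kept, the adjusted p was 0.079.

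The liver and blood plasma group held 14 transcripts, of which 12 rose with LPS+curcumin over LPS in limma's fit, all 14 without replicate 1, and 1 in the 2-group fit. They encode albumin (Alb), fetuin-A (Ahsg), prothrombin (F2), a factor XIII subunit (F13b), hepcidin (Hamp), mannose-binding lectin (Mbl2), retinol-binding protein (Rbp4), the serum amyloid Saa4, the antimicrobial peptide Leap2, and enzymes and a transporter of the hepatocyte (Baat, Hgd, Dpys, Cyp4f14, Abcg5). Hamp and F2 did not pass, at 2.23 ± 0.95 (SE, adjusted p = 0.11, at least 5.16-fold without replicate 1) and 3.91 ± 1.27 (SE, adjusted p = 0.0524, at least 19.9-fold without replicate 1). Baat, which joins bile acids to glycine or taurine, stood at -8.98, -9.57 and -8.90 untreated, -0.77, -0.23 and 0.29 with curcumin, -7.38, -7.33 and -5.69 with LPS and -2.84, -0.02 and 0.42 with both. All LPS+curcumin arrays lay above all LPS arrays, and 1 LPS array detected it. The curcumin bound was 143-fold, and the rise of LPS+curcumin over LPS was 5.99 ± 0.75 (SE, adjusted p = 0.0011, and 0.032 in the 2-group fit) in limma.

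Ahsg stood at -9.51, -9.67 and -9.77 untreated, -2.23, -1.98 and -1.85 with curcumin, -8.98, -9.45 and -9.59 with LPS and -8.92, -2.32 and -1.81 with both. Replicate 1 of LPS+curcumin lay close to the LPS arrays and the other replicates close to the curcumin arrays. The rise over LPS was 4.99 ± 1.39 (SE, adjusted p = 0.032, and 0.16 in the 2-group fit, at least 32.3-fold without replicate 1) in limma, and 7.27 ± 0.23 (adjusted p = 1.7e-08) without replicate 1. The call was lost without any 1 of the LPS arrays or LPS+curcumin replicates 2 or 3, where limma's adjusted p reached 0.13. Alb stood at -2.83, -2.75 and -2.11 with curcumin and -6.94, -3.65 and -2.81 with both, against -8.94, -8.83 and -9.72 untreated and -7.48, -9.42 and -9.53 with LPS. Its curcumin bound was 28.5-fold and its rise over LPS 4.34 ± 0.89 (SE, adjusted p = 0.0097, and 0.083 in the 2-group fit, at least 14.4-fold without replicate 1) in limma. Abcg5, a sterol exporter of liver and gut, stood at -1.32, -1.06 and -0.65 with curcumin and -6.32, -1.21 and -0.18 with both, and at or below -8.19 on the untreated and LPS arrays. Its curcumin bound was 83.4-fold, and its rise over LPS was 5.93 ± 1.16 (SE, adjusted p = 0.0079, and 0.078 in the 2-group fit, at least 22.8-fold) in limma.

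All 4 transcripts of the fat tissue group rose with LPS+curcumin over LPS, and 1 did so in the 2-group fit. Adipoq, which encodes the fat-cell hormone adiponectin, stood at -9.18, -9.64 and -9.76 untreated, -2.17, -2.21 and -1.58 with curcumin, -9.09, -9.44 and -9.56 with LPS and -5.65, -2.62 and -1.36 with both. Ucp1, the uncoupling protein of brown fat, stood at -9.49, -9.65 and -9.77 untreated, -1.77, -2.22 and -1.91 with curcumin, -9.03, -9.46 and -9.56 with LPS and -6.54, -2.40 and -1.90 with both. For both genes every LPS+curcumin array lay above every LPS array, with replicate 1 the lowest of its group. The curcumin bounds were 42.4-fold and 43.0-fold, and the rises over LPS were 6.15 ± 0.80 (SE, adjusted p = 0.0013, and 0.035 in the 2-group fit, at least 14.7-fold) and 5.74 ± 0.90 (SE, adjusted p = 0.0029, and 0.0507 in the 2-group fit, at least 11.1-fold) in limma. The others were Plaat3, a phospholipase of fat cells, and Aoc3, an amine oxidase of fat and vessels.

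All 7 muscle transcripts rose over LPS, 1 of them in the 2-group fit. They were Ampd1, Csrp3, Pygm, Ttn, Mybpc2, Hspb2 and Tagln. Ampd1, the AMP deaminase of skeletal muscle, stood at -7.76, -8.16 and -8.29 untreated, 0.27, 0.46 and 0.85 with curcumin, -8.69, -7.41 and -9.47 with LPS and -4.00, -1.47 and 0.67 with both. All LPS+curcumin arrays lay above the LPS arrays. The curcumin bound was 243-fold, and the rise over LPS was 6.86 ± 1.06 (SE, adjusted p = 0.0034, and 0.058 in the 2-group fit, at least 42.8-fold) in limma, from 2 LPS+curcumin arrays since the spot on replicate 2 was marked as an outlier. Ttn, the giant sarcomere protein titin, rested on 1 probe of 8 on the array: of its 7 other probes, 6 were detected on no untreated or curcumin array, and 1 was detected on 2 untreated and all curcumin arrays.

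In the epithelial and digestive group, 14 of 15 transcripts rose over LPS, 5 of them in the 2-group fit. They include the keratinocyte genes Serpinb5 and Evpl, the membrane mucin Muc4, the goblet-cell factor Spdef and the digestive enzymes Amy1, Cym and Treh. Also among them are the lipase Liph, the stomach hormone ghrelin (Ghrl), the islet factor Pax4 and the iodide transporter Slc5a5. Amy1, an amylase of salivary gland and liver, stood at -7.70, -8.58 and -8.23 untreated, -1.70, -1.69 and -1.43 with curcumin, -8.12, -9.02 and -9.24 with LPS and -2.84, -1.83 and -1.75 with both. Muc4 stood at -9.38, -9.54 and -9.70 untreated, -2.58, -3.94 and -3.71 with curcumin, -8.97, -9.41 and -9.51 with LPS and -4.41, -3.21 and -2.81 with both. In both genes replicate 1 of LPS+curcumin lay near the other replicates of its group, far above the LPS arrays. The rises over LPS were 6.66 ± 0.37 (SE, adjusted p = 1.1e-05, and 0.0068 in the 2-group fit, at least 30.8-fold) and 5.82 ± 0.42 (SE, adjusted p = 8.8e-05, and 0.0068 in the 2-group fit, at least 12.2-fold) in limma. A further probe of Amy1 was detected on all untreated arrays and was 4.48 higher with curcumin, and a further Muc4 probe likewise detected was 1.71 higher. The amylase genes are near-identical copies, and the probe's own copy was not tested. Evpl (envoplakin, of the cornified envelope) did not pass, at 2.84 ± 0.91 (SE, adjusted p = 0.0501, at least 15.7-fold without replicate 1).

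**Figure D4:**
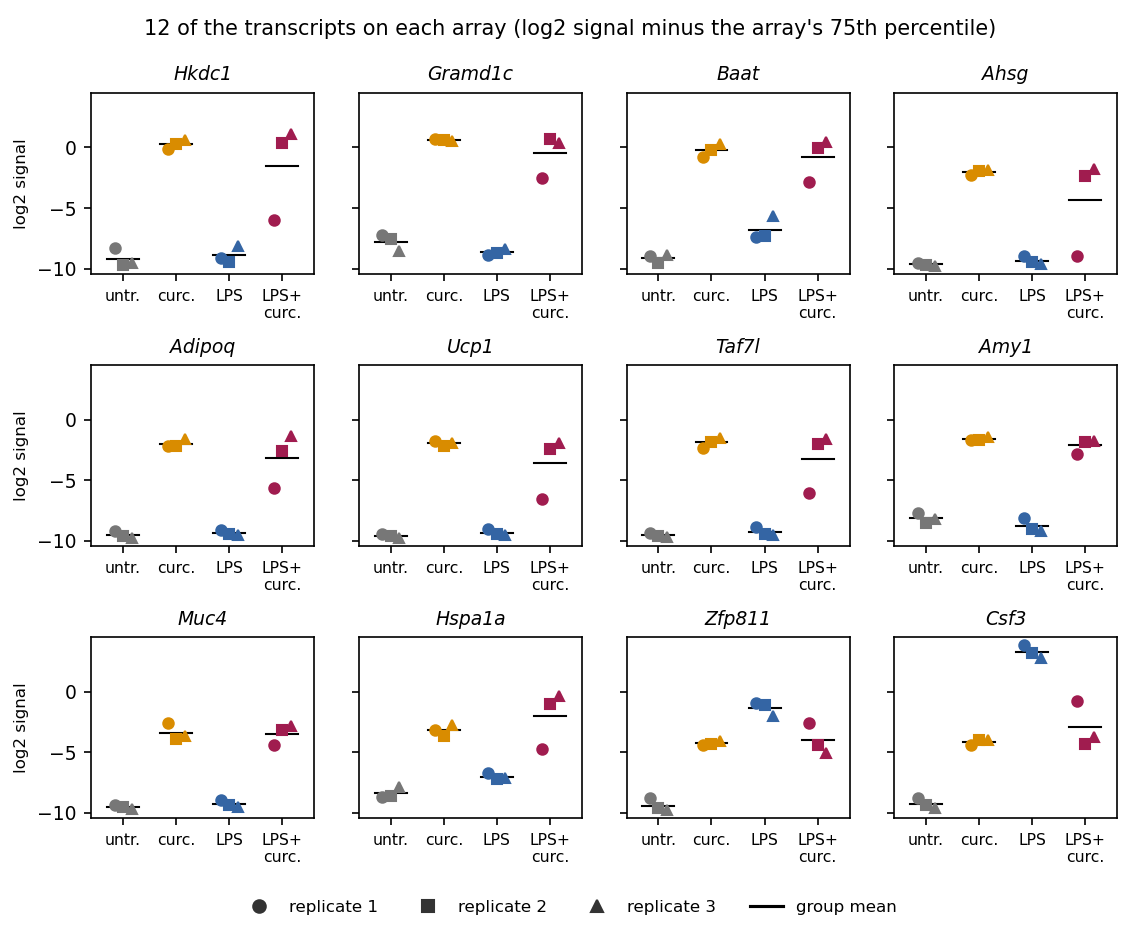
Log2 signal minus the array's 75th percentile of 12 of the transcripts on each of the 12 arrays, by group, with replicates as symbols and group means as lines. In the first 10 panels the curcumin points are high and the untreated and LPS points low, with replicate 1 of LPS+curcumin lower than replicates 2 and 3. In Zfp811 and Csf3 the LPS points are the highest.

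Of 16 germ-line transcripts, 15 rose over LPS, 3 of them in the 2-group fit. The group spans meiosis (Msh4), the spermatid and sperm (Ldhc, Fabp9, Prss39, Fam71d, Saxo1), germ-cell transcription factors (Taf7l, Gtf2a1l, Tcfl5, Mbd3l1) and the oocyte (Ooep, Khdc3, Nlrp4f). Taf7l, a germ-cell form of a TFIID subunit, stood at -9.37, -9.62 and -9.73 untreated, -2.33, -1.84 and -1.50 with curcumin, -8.86, -9.42 and -9.55 with LPS and -6.07, -2.03 and -1.63 with both. Tcfl5, a helix-loop-helix factor of the testis, stood at -2.06, -1.91 and -1.34 with curcumin and -7.95, -1.84 and -0.67 with both. Replicate 1 of LPS+curcumin was the lowest of its group in both. The rises over LPS were 6.03 ± 0.89 (SE, adjusted p = 0.0022, and 0.045 in the 2-group fit, at least 14.3-fold) and 5.68 ± 1.37 (SE, adjusted p = 0.019, and 0.12 in the 2-group fit, at least 56.7-fold without replicate 1) in limma, and 5.89 ± 0.89 (SE, adjusted p = 0.0025, and 0.0451 in the 2-group fit, at least 13.5-fold) for Fam71d, a testis gene. For Tcfl5 the call was lost without any 1 of the LPS arrays or LPS+curcumin replicates 2 or 3, where limma's adjusted p reached 0.086. The exception was Saxo1, at 3.52 ± 1.35 (SE, adjusted p = 0.09, at least 24.8-fold without replicate 1) in limma, its spot on replicate 2 having been marked and left out, so that the bound rests on replicate 3.

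Motile cilia were represented by Drc1, a dynein regulator, Kif27, a kinesin, and Dnah2, an axonemal dynein chain. All 3 rose over LPS, and 0 did so in the 2-group fit. Drc1 stood at -7.34, -8.11 and -7.78 untreated, -1.08, -0.82 and -0.41 with curcumin, -8.55, -8.09 and -7.66 with LPS and -5.49, -1.0 and -0.42 with both. All LPS+curcumin arrays lay above all LPS arrays. The curcumin bound was 98.5-fold, and the rise over LPS was 5.80 ± 1.0 (SE, adjusted p = 0.0045, and 0.058 in the 2-group fit, at least 27.5-fold) in limma.

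In the group of nerve and sense-organ genes, 16 of 17 transcripts rose over LPS, 3 in the 2-group fit. Among them were the neurofilament-like protein peripherin (Prph), the synaptic proteins Sv2a and Amph, receptors for serotonin (Htr3b, Htr5b), dopamine (Drd4) and adrenaline (Adra2a), the channel subunits Cacnb4 and Kcnmb4, the inner-ear protein Tecta and the retinal protein Impg2. Prph stood at -9.41, -7.64 and -8.11 untreated, -2.50, -2.64 and -2.27 with curcumin, -8.91, -9.43 and -9.57 with LPS and -7.02, -2.94 and -2.73 with both. Replicates 2 and 3 of LPS+curcumin lay at the level of the curcumin arrays, and replicate 1 did not detect it. Of the 9 matrix and connective tissue transcripts, 8 rose, 1 of them in the 2-group fit, among them Col2a1 (cartilage collagen), Matn3, Ecm2, Fgf7 and Tgfb2, and Lrrc15 did not pass at 3.87 ± 1.25 (SE, adjusted p = 0.0511, at least 16.9-fold without replicate 1). Fgf7, a growth factor for epithelium, rose by 3.00 ± 0.53 (SE, adjusted p = 0.005, and 0.061 in the 2-group fit, at least 5.59-fold without replicate 1) in limma.

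Of 13 developmental signals and factors, 10 rose over LPS, 2 in the 2-group fit, and all 13 without replicate 1. The group includes the signalling proteins Dll1, Dhh, Efnb2 and Sema4g, the retinoid binder Crabp2, the receptor Lgr4, and the factors Tcf7l1, Tcf15, Foxd4, Prdm6, Hic1 and Tfap2e. Lgr4, a receptor that strengthens Wnt signalling, stood at -9.55, -9.67 and -9.76 untreated, -2.99, -2.14 and -1.88 with curcumin, -9.05, -9.44 and -9.58 with LPS and -8.40, -2.24 and -1.78 with both. Replicates 2 and 3 of LPS+curcumin were high, and replicate 1 lay close to the LPS arrays. The rise over LPS was 5.21 ± 1.31 (SE, adjusted p = 0.022, and 0.13 in the 2-group fit, at least 33.6-fold without replicate 1) in limma. This call, too, was lost without any 1 of the LPS arrays or LPS+curcumin replicates 2 or 3, where limma's adjusted p reached 0.095. Those that did not pass with all arrays were Sema4g, Dll1 and Crabp2. Dll1, a Notch ligand, stood at -5.82, -7.05 and -6.96 with LPS, above its untreated values of -8.79, -8.86 and -9.46.

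In the blood, immune and vessel group, 4 of 11 transcripts were detected on all 3 LPS arrays, and 5 rose and 2 fell with LPS+curcumin against LPS. In the 2-group fit 1 rose, and Csf3 fell. Csf3, the granulocyte colony-stimulating factor, stood at -8.81, -9.38 and -9.63 untreated, -4.43, -4.02 and -3.99 with curcumin, 3.82, 3.18 and 2.80 with LPS and -0.82, -4.37 and -3.71 with both. The LPS arrays were the highest, replicate 1 of LPS+curcumin lay between LPS and curcumin alone, and replicates 2 and 3 lay at the level of curcumin alone. The fall against LPS was -6.23 ± 0.71 (SE, adjusted p = 7.4e-04, and 0.03 in the 2-group fit) in limma. Cd247, the zeta chain of the T-cell receptor, stood under accession NM_001113391 at -9.33, -9.42 and -9.66 untreated, -1.24, -1.87 and -1.54 with curcumin, -0.95, -0.89 and -2.71 with LPS and -3.51, -3.06 and -2.93 with both. All LPS+curcumin arrays lay below all LPS arrays. The difference was -1.65 ± 0.42 (SE, adjusted p = 0.023, and 0.13 in the 2-group fit) in limma, and the call was lost without LPS replicate 1 or 2 or LPS+curcumin replicate 2 (adjusted p up to 0.09). Its second accession gave -1.0 ± 0.47 (SE, adjusted p = 0.14) and did not pass, and a further probe was detected on no untreated or curcumin array.

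Batf, a leucine zipper partner of Jun proteins, stood at -9.15, -9.40 and -9.50 untreated, -3.01, -3.06 and -2.43 with curcumin, -3.23, -2.81 and -4.11 with LPS and -4.89, -3.32 and -2.56 with both. The 3 treated groups overlap, and the difference of LPS+curcumin from LPS was -0.21 ± 0.51 (SE, adjusted p = 0.77) in limma, and positive without replicate 1, at 0.44 ± 0.37 (adjusted p = 0.32). Zfp811, a zinc finger gene outside this group, stood at -8.80, -9.65 and -9.79 untreated, -4.40, -4.34 and -4.11 with curcumin, -0.93, -1.10 and -2.01 with LPS and -2.58, -4.45 and -5.04 with both. Every LPS array lay above every other array, and the fall against LPS was -2.68 ± 0.54 (SE, adjusted p = 0.0091, and 0.078 in the 2-group fit) in limma. The members of the group that rose were the vessel adhesion molecule Pecam1, the platelet integrin Itga2b, the natural killer receptor Klre1, the pre-T-cell receptor chain Ptcra and the scavenger receptor Scarf1.

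Of 3 stress genes, Hspa1a and Dnajc28 rose over LPS and Dusp8 did not pass, and in the 2-group fit 0 of the 3 rose. Hspa1a, the inducible HSP70 chaperone, stood at -8.72, -8.63 and -7.91 untreated, -3.16, -3.71 and -2.77 with curcumin, -6.73, -7.20 and -7.17 with LPS and -4.78, -1.04 and -0.34 with both. The curcumin arrays lay above the untreated and LPS arrays, and replicates 2 and 3 of LPS+curcumin lay above the curcumin arrays. The rise over LPS was 4.98 ± 0.87 (SE, adjusted p = 0.0048, and 0.058 in the 2-group fit, at least 31.3-fold) in limma, and at least 80.4-fold without replicate 1. The probe of its near-identical neighbour Hspa1b was likewise undetected on the untreated arrays and detected on all curcumin arrays, with means of -8.03 and -5.46, and which of the copies each probe reads was not tested. Dusp8, a phosphatase of MAP kinases, stood at -8.96, -9.39 and -9.32 untreated, -4.02, -4.54 and -3.74 with curcumin, -4.17, -4.74 and -4.16 with LPS and -4.49, -2.26 and -1.80 with both. Curcumin and LPS alone overlap there, and LPS+curcumin differed from LPS by 1.51 ± 0.56 (SE, adjusted p = 0.077) in limma, or by 2.33 ± 0.28 (adjusted p = 7.9e-05) without replicate 1.

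The other 115 transcripts, among them all 51 unnamed ones, have no group here. Of these, 97 rose over LPS and 1 fell in limma's fit, 16 rose in the 2-group fit, and 114 rose without replicate 1. The transcripts lie on many chromosomes: among the 176 named ones, chromosome 9 holds 19, chromosome 11 holds 15 and chromosomes 3 and 1 hold 14 each. In 3 cases both of a pair of neighbouring coding genes are members, namely Gal3st1 and Sec14l4, Zfp819 and Ceacam18, and Pdzd3 and Nlrx1. The counts by chromosome and of neighbours were not compared with all genes on the array, so no clustering is read from them.

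Near the threshold of 5, the lowest members with a symbol were Htra4, a serine protease, at 5.0, Ghrl at 5.01, Fgf7 at 5.02, Mbd3l1, a testis gene related to a methyl-CpG binding protein, at 5.03, and Myo5c, an epithelial myosin, at 5.03. Just outside it stood the histamine receptor gene Hrh4 at 4.99, the arsenic methyltransferase gene As3mt at 4.99, Foxj1, the master factor of motile cilia, at 4.98, Spata19, a sperm mitochondrial gene, at 4.95, and the matrix protein gene Tnn at 4.95. Another 577 probes went from undetected to detected with a smaller difference, and 429 of them were detected on LPS+curcumin replicates 2 and 3, 82 on replicate 1 and 18 on all 3 LPS arrays. The differences thus run on without a gap at the edge of the list.

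The array carries 58 further probes for 44 of the member genes. Of them, 41 were undetected on all untreated arrays, and of these 17 were detected on all curcumin arrays, 9 on 1 or 2 of them and 15 on none. A further 14 were detected on all untreated arrays already, and 3 on 1 or 2 of them. Of those 14, 11 were more than 1 higher with curcumin on the log2 scale, and the share of all such detected probes was not counted. Those 14 were probes of Amy1, Chd5, Col2a1, Dnajc28, Evpl, Ghrl, Hepacam, Inava, Muc4, Nlrx1, Sobp, Tagln, Tfap2e and Tub, and the Hepacam one was 5.39 higher. For these genes the silence of untreated cells held for the member probe and not for every probe. The 15 detected on no untreated or curcumin array were of Cacnb4, Cd247, Dnah2, Faxc, Impg2, Lgr4, Myo5c, Nlrx1 and Ttn. There the switch held for the member probe only, or for some probes.

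Lists of defining markers of other tissues were followed in the same way. Of 110 measured markers of neurons, glia, retina, germ line, liver, muscle, epithelium, gut, kidney, lung, cilia, red cells and lymphoid cells, 42 were detected on all untreated arrays already. Another 59 were undetected on all untreated arrays, and 4 of these were detected on all curcumin arrays, namely Alb, Ahsg, Apoa1 and Foxj1. Of all probes silent in untreated cells, 5.34% were so detected, a share near that of the lists. In the germ line list 7 of 12 markers were detected on all untreated arrays and 0 of 4 silent ones came on, and in the muscle list these counts were 6 of 10 and 0 of 3. In the neuron list 0 of 9 silent markers came on and in the liver list 3 of 6. Of 745 silent genes of olfactory, vomeronasal, amine and bitter taste receptors, 4 were detected on all curcumin arrays, and 0 of the 227 transcripts belong to these families. In none of the tissue lists did all silent markers come on.

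Promoters from the RefSeq table matched 142 of the 175 gene symbols. The CpG content is given as the ratio of observed to expected CpG, where values near 1 mark CpG islands and low values mark promoters without one. The median ratio was 0.41 for the member genes, 0.28 for the other 3553 genes with all probes silent in untreated cells and 0.66 for all 13831 genes on the array with a promoter. A ratio of at least 0.6 was found in 30.3% of the member promoters, 23.1% of the other silent ones and 55.2% of all. By motif, in the same order of sets, TGACNNNGC stood in 13.4%, 11.4% and 13.8%, GAANNTTC in 5.63%, 8.84% and 6.6%, and TGANTCA in 12%, 10.8% and 6.79%. TATAAA stood in 16.2%, 21.8% and 12.1%, CACGTG in 5.63%, 5.52% and 8.75%, and TGACGTCA in 1.41%, 1.27% and 2.57%. In this window of 250 bases before and 50 after the start, the member promoters thus lay nearer to the other silent genes than to all genes in CpG content. No motif was tested for enrichment.

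**Figure D5:**
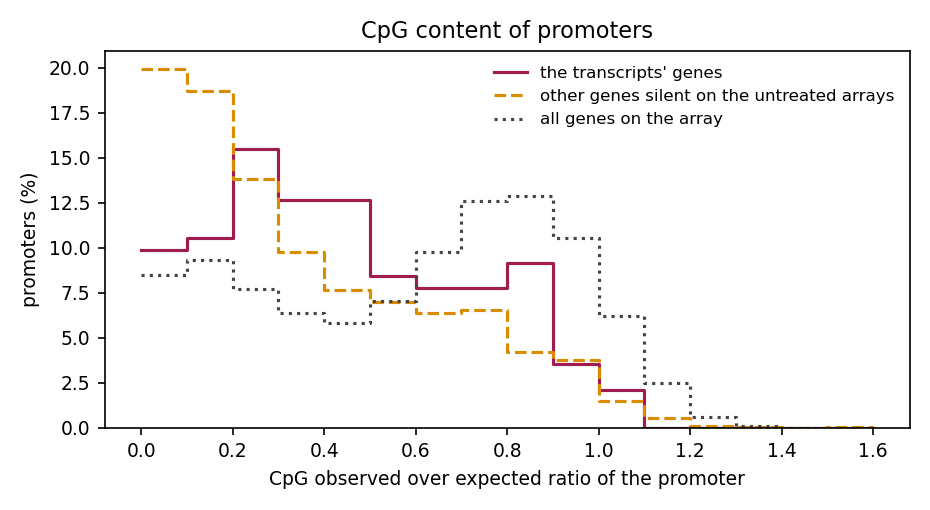
Share of promoters (percent, vertical axis) by the ratio of observed to expected CpG (horizontal axis) for 142 member genes, 3553 other genes silent on the untreated arrays and 13831 genes of the whole array. The member genes lie mostly at low ratios (median 0.41), between the other silent genes (0.28) and all genes (0.66).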

How the data were processed

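The authors' deposited scanner files hold spot intensities of 12 one-colour Agilent arrays of Cy3-labelled BV-2 RNA, with background already subtracted in the processed signal, per the file headers. The file headers name Agilent Feature Extraction 10.5.1.1, and the submitters' processing notes give 9.1. The deposited value table held the same intensity within 0.397%. The files give accessions, and symbols came from RefSeq's annotation of GRCm38.p6 (25097 of 41174 probes matched).

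Of 45018 spots per array, 1639 control spots were left out, and 58.0% to 65.9% were well above background. The 75th percentile of the processed signal ran from 304.5 to 979.3. The log2 of the processed signal minus that percentile was the value used. Spots marked as outliers were kept when choosing transcripts and dropped for tests, and spots of a probe were averaged. A transcript stood by its member probe with the highest mean over the 12 arrays (10 transcripts had more than 1). A probe was tested if some group had it well above background in each of its 3 samples (25530 probes), by limma 3.58.1 in R 4.3.3 (lmFit, eBayes, 4 group means, two-sided, Benjamini-Hochberg, threshold 0.05). Summaries were made with Python 3.11.15, pandas 2.3.3, numpy 2.4.6 and data.table (version 1.17.8). On data simulated for LPS+curcumin versus LPS over 24625 probes, the fit recovered 62% of changes of 1, 94% of changes of 2 and 100% of changes of 4 or 6 on the log2 scale, and called 0.0409% of unchanged probes. The simulation used the spread of the other 3 groups and not that of LPS+curcumin replicate 1.

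An "at least" fold sets the bright group's mean against, per array, the higher of the dim probe's signal and the signal of the dimmest detected probe. All of these are scaled signals, so the bound holds for that scaling and that floor, and it carries no spread between arrays. The number of arrays limits the precision. Genes named singly were those with the 12 highest differences with curcumin, the 12 highest and 6 lowest differences of LPS+curcumin from LPS, the 6 highest with LPS, those around the threshold and those in marker lists, with others given as examples of their group. The members and all lists were chosen with earlier results of these data known. Alternatives were other scalings, normexp background correction (on median spot signals), the value table, filters, outlier spots, the slide as a block, fewer groups and leaving out each array. Some member genes are counted but are not reported here by name.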

Additional observations from a re-analysis of the deposited data

Results flagged for a closer look

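In 3 of the transcripts every slide moved one way with curcumin in cells without LPS and the opposite way in cells with LPS. The difference between these effects was not tested, because the untreated and curcumin values chose the transcripts. The rise without LPS thus follows from the choice. The share of all probes with such opposite directions was not counted. Without LPS, each was detected on every curcumin array and on no untreated one. The size there is given as a bound against the floor, on the scaled signal. Csf3 was at least 9.49-fold higher with curcumin than untreated, whereas LPS+curcumin minus LPS was -6.23 on the log2 scale (-4.64, -7.54 and -6.51 on the 3 slides). Zfp811 was at least 8.64-fold higher without LPS and at -2.68 with it (-1.66, -3.35 and -3.03). Cd247, under accession NM_001113391, was at least 57.5-fold higher without LPS and at -1.65 with it (-2.55, -2.17 and -0.23).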

How the results depend on the processing

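The number of transcripts called in LPS+curcumin versus LPS (196, higher and lower together) was 122 with quantile scaling, 5 with normexp, 130 with no filter on dim probes, 57 (of 62 left to test) with the filter on those groups and 35 with those arrays alone, and ran from 72 to 225 when each array was left out in turn. The replicate block gave 207. The deviations of same-numbered LPS and LPS+curcumin arrays from their group means correlated at 0.18, 0.12 and -0.04, and those of same-numbered untreated and curcumin arrays at 0.56, 0.23 and 0.32. The numbers share a slide, and not every pair of the compared groups deviated together. The median difference over the transcripts ran from 3.01 to 5.54 across arrays left out, was 1.06 with normexp and lay between 3.22 and 3.94 under the scalings, while the median over all probes moved from 0.31 to 0.01 with quantile, -0.42 with median and -0.41 with spike-in scaling. With median scaling 4.82% of all probes were called higher and 16.3% lower. Of the 227 transcripts, 222 were higher under all 5 scalings and 119 were called higher under all of them. Among all probes at most 4.54% can have been called higher under all, the share with spike-in scaling. The share of all probes merely higher under all 5 was not counted.

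The number of transcripts that met the rule was 418 with a difference of at least 4, 94 with at least 6, 110 with median, 94 with spike-in and 107 with quantile scaling, 0 with normexp, and 206 to 244 with an untreated or curcumin array left out. It was 227 with marked spots dropped, or with any spot of a probe detected, both chosen after seeing the data. The 61 transcripts detected on all 3 LPS+curcumin arrays became 226 on at least 2 arrays, and 61 to 226 with an array left out. Among 719 values of the 28 genes named by the rule under alternatives, 619 kept their direction and side of the threshold, 92 lost the call, 3 gained it and 5 changed sign. All 5 were of Batf (-0.21 in the reported fit, and -0.72 to 0.44 with an array left out), at 0.19 with normexp, 0.08 without LPS replicate 2, 0.44 without LPS+curcumin replicate 1, 0.44 without it in those groups alone, and 0.47 without it with the replicate block. The cause of these changes was not tested, other than that fewer arrays or probes entered some fits. In scanner units the median transcript lay under the dimmest detected signal on every untreated and LPS array. Some undetected values, such as Gramd1c on untreated replicate 1, lay above it. No level below that signal can be told.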
